A study of Mus musculus with 6 samples.

Results

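The genes described here are 36 genes that mark the cells lining blood and lymphatic vessels. They were listed by symbol for their known roles in endothelium. The rule uses no measured value, but the list was drawn up with earlier results of these data known. All 36 were found among the 55487 gene IDs of the count table and passed the filter on low counts. RNA came from the rib cages of 6 mouse embryos at 16.5 dpc (days post coitum), cleaned of connective tissue. The 3 control embryos (E420, E434 and E435) are labelled wild type, and the study describes the controls of its skeletal stains as cre negative. By the study's methods embryos were compared within litters, from dams homozygous for floxed Foxc1 and Foxc2, and which of these alleles each control carried is not given in the sources used here. The 3 mutant embryos (E423, E433 and E440) were Col2-cre;Foxc1-/-;Foxc2-/-, in which cre recombinase driven by the Col2 promoter deletes floxed Foxc1 and Foxc2. All were on a mixed C57B6 and Black Swiss background. The driver acts in chondroprogenitor cells, and the study's reporter also marked perichondrium and the primary ossification center. Whether endothelial cells carried the deletion is not given in the sources used here. Because whole rib cages were sequenced, fewer endothelial cells and less RNA per endothelial cell cannot be told apart.

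Endothelial cells form the inner wall of every vessel, where they hold together through junction proteins such as VE-cadherin and respond to VEGF, angiopoietins and apelin. In a bone that forms through cartilage, vessels grow from the perichondrium into hypertrophic cartilage. Osteoclasts, which secrete the protease MMP9, and osteoblast precursors, which depend on the transcription factor SP7, arrive at the same front, so Sp7 and Mmp9 are the comparison for the vessel genes below. Lymphatic vessels branch off from veins under the transcription factor PROX1.

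The targeted genes were lower in every library labelled mutant. Foxc1 was at 23.1, 36.9 and 24.2 CPM (counts scaled to the size of the library by the TMM method) in controls E420, E434 and E435, and mutants E423, E433 and E440 had 3.56, 9.60 and 3.51 CPM. For Foxc2 the control values were 1.99, 4.83 and 3.22 CPM and the mutant values 0.649, 1.14 and 0.737 CPM, with the libraries in that same order, which is kept throughout. Library totals ran from 37853988 to 47794799 counts. A library pair stood out in each group for its closeness. Between E420 and E435, the variance of genes with 200 to 1000 fragments was 1.91 times what counting error gives, and between E423 and E440 it was 1.65 times, against 12.1 to 47.3 times for the other pairs. These libraries differed by more than counting error and were kept as separate embryos, as they are labelled. Whether the libraries of a close pair are independent was not tested. E434 and E433 stood apart from the other libraries of their groups. The 10 cartilage genes of a marker list summed to 23052 CPM in E434 and 8255 CPM in E433, and elsewhere to no less than 412 and no more than 1346 CPM. The 7 keratinocyte genes summed to 11.3 CPM in E434 and 3043 CPM in E433. The remaining controls had 4997 and 5831 CPM of them, and the remaining mutants 27034 and 27161 CPM. Xist, the RNA that silences an X chromosome in female cells, was at 1127 CPM in E433 and at most 3.11 CPM in any other library. Adipocyte markers were apart between the groups, and skeletal muscle markers only in part. All 6 adipocyte genes were higher in every mutant, against 6.81% of all genes tested, but 0 passed the adjusted limit of the main test below. They summed to 138.2 to 150.1 CPM in controls, 212.1 CPM in E433 and 632.3 and 649.5 CPM in E423 and E440. The 7 skeletal muscle genes summed to 12332 to 19341 CPM in controls and 25563 and 25122 CPM in E423 and E440. E433, at 15106 CPM, lay within the controls. None of the adipocyte or muscle genes was at 0 in a library, and the part of tissue makeup in the vessel gene levels was not tested. These marker levels were unequal between the 6 libraries, so the main counts below are also given without E433, and without both E434 and E433.

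The vessel genes were present in all 6 libraries at moderate levels. Their mean in controls ran from 5.25 CPM for Hey2 to 148 CPM for Cdh5, resting on 135 to 8162 counts in a library. Per transcript length, in TPM (transcript counts scaled for length, which allows genes to be compared), the control mean ran from 2.92 for Hey2 to 79.4 for Egfl7, with a median of 15.2 TPM. The general endothelial markers Cdh5 (51.2 TPM) and Pecam1 (47.4 TPM) were above that median, and the lymphatic regulator Prox1 (3.06 TPM) was the second lowest.

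None of the 36 genes passed both limits of the main test, an adjusted p-value under 0.1 (edgeR's quasi-likelihood test, Benjamini-Hochberg adjustment over all 26596 genes tested) together with a log2 fold change of 1 or more in size. In all genes tested, 0.0639% passed. The smallest adjusted p-value of the 36 was 0.285. The log2 fold change, mutant minus control, was below 0 for 29 of the 36 (80.6%, against 48.8% of all genes tested), with a median of -0.18, which is 88.5% of the control level, against a median of 0.01 for all genes tested. At an unadjusted p-value under 0.05, 6 of the 36 were lower in mutants (16.7%, against a background of 4.70%) and 0 were higher (background 5.90%). In 8 of the 36 (22.2%, against 8.21%) every mutant lay below every control, and in 0 (against 6.81%) every mutant lay above. These genes are expressed by the same cells and vary together between libraries, so the counts do not come from 36 independent measurements.

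The main fit limits how large a difference could be, with the close libraries counted as separate embryos and no adjustment over the 36 genes. The 95% interval of the log2 fold change lay above -1 for 33 of the 36 genes and below 1 for all 36. The other 3, for which a loss of that size lay within the interval, were Gja5, Erg and Hey2. For comparison, the interval lay above -1 for 70.6% of all genes tested.

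**Figure D1:**
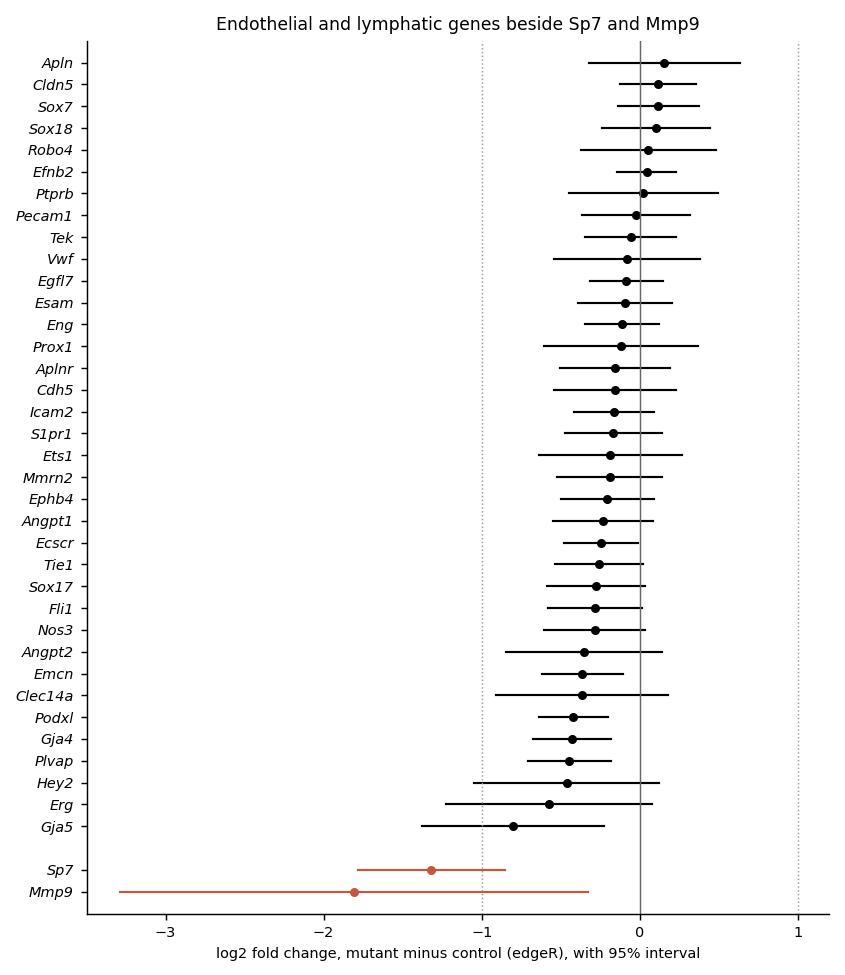
The horizontal axis is the log2 fold change, mutant minus control, from edgeR with its 95% interval. Black marks show the 36 vessel genes and red marks Sp7 and Mmp9, and dotted lines mark -1 and 1. The vessel genes run from -0.80 (Gja5) to 0.16 (Apln), and Sp7 (-1.32) and Mmp9 (-1.81) lie to the left of all of them.

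How many vessel genes passed depended on E433. Without this mutant, 10 of the 36 (27.8%) had an edgeR adjusted p-value below 0.1, all lower in mutants, against 13.4% of all genes tested, and 17 were lower at an unadjusted p-value under 0.05, against 12.5% of all genes. Without both E434 and E433, 24 of the 36 (66.7%) had an adjusted p-value below 0.1, but so had 37.6% of all genes tested. Of the 24, 22 were lower and 2 higher. The 4 libraries left form the close pairs, and that fit counts them as replicates. The fold limit was passed by 1 gene, Gja5, in each of these comparisons. The median log2 fold change was -0.27 without E433, -0.10 without E434 and -0.21 without both. With all 6 libraries, DESeq2's Wald test gave an adjusted p-value under 0.1 for 4 of the 36 (11.1%, against 4.34% of the genes it adjusted), namely Gja5, Gja4, Podxl and Plvap, all with folds short of the limit.

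**Figure D2:**
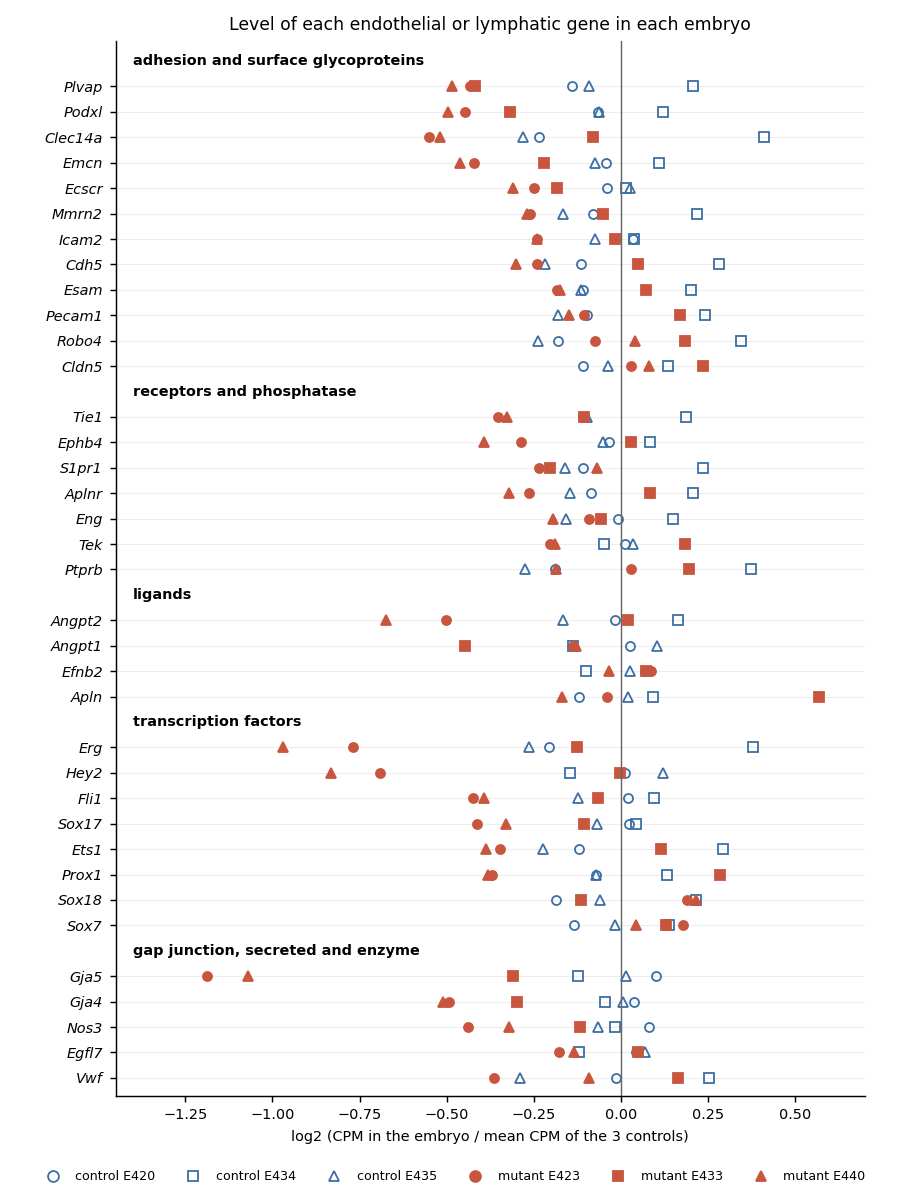
Each row is 1 gene, grouped by role, and the horizontal axis is the log2 ratio of its CPM in an embryo to the mean CPM of the 3 controls. Open blue marks are controls and filled red marks are mutants. E433 (red squares) lies above both other mutants for 31 of the 36 genes and E434 (blue squares) above both other controls for 27.

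Among the junction proteins and surface glycoproteins, 4 of 12 were lower at an unadjusted p-value under 0.05, against 4.70% of all genes tested. The median log2 fold change of the 12 was -0.18. Pecam1 (chr11:106654217-106750628 on GRCm38, the build of all coordinates given), which codes for the adhesion molecule CD31 at contacts between endothelial cells, was at 103.5, 130.9 and 97.6 CPM in controls and 102.9, 124.4 and 99.8 CPM in mutants. The groups overlapped throughout, and the log2 fold change was -0.02 ± 0.14 (SE, adjusted p = 0.97). Cdh5 (chr8:104101625-104144511), the gene of VE-cadherin, was at 136.9, 180.1 and 127.3 CPM in controls and 125.2, 153.3 and 120.2 CPM in mutants. The highest value of each group was again E434 and E433, and the log2 fold change was -0.16 ± 0.16 (SE, adjusted p = 0.759).

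The lower surface proteins were 3 glycoproteins of the side facing the blood and a regulator of endothelial movement. Podxl (chr6:31519488-31563981), coding for the sialomucin podocalyxin, was at 43.9, 49.9 and 43.9 CPM in controls and 33.7, 36.8 and 32.5 CPM in mutants. The groups did not overlap, and the log2 fold change was -0.42 ± 0.09 (SE, unadjusted p = 0.00297, adjusted p = 0.285, edgeR). Plvap (chr8:71497765-71511752), which forms the diaphragms of endothelial pores and caveolae, was at 38.2, 48.5 and 39.4 CPM in controls and 31.2, 31.4 and 30.0 CPM in mutants. All 3 mutants lay close together and below every control, and the log2 fold change was -0.45 ± 0.11 (SE, unadjusted p = 0.00561, adjusted p = 0.347, edgeR). Emcn (chr3:137341067-137432185), coding for endomucin, a sialomucin of capillaries and veins that is abundant in the vessels of growing bone, was at 23.4, 26.0 and 22.9 CPM in controls and 18.01, 20.7 and 17.5 CPM in mutants. Every mutant was below every control, with a log2 fold change of -0.36 ± 0.11 (SE, unadjusted p = 0.0127, adjusted p = 0.389, edgeR). Ecscr (chr18:35713086-35722356), a regulator of endothelial cell movement, was at 12.4, 12.9 and 12.9 CPM in controls and 10.7, 11.2 and 10.3 CPM in mutants. These groups did not overlap either, although the difference was small, at a log2 fold change of -0.25 ± 0.10 (SE, unadjusted p = 0.043, adjusted p = 0.459, edgeR).

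Podxl, Plvap and Emcn were also lower relative to general endothelial RNA. As a share of the summed CPM of 8 genes that all vessels share (Pecam1, Cdh5, Tie1, Esam, Erg, Egfl7, Ecscr and Clec14a), Podxl was at 9.75% ± 0.709 (SD, n = 3) in controls and 8.14% ± 0.504 in mutants. Plvap was at 8.88% ± 0.34 (SD, n = 3) in controls and 7.35% ± 0.77 in mutants, and Emcn at 5.13% ± 0.397 and 4.44% ± 0.159. In none of the 3 did the mutants overlap the controls, a description for which no test was run. These genes were already lower in CPM in every mutant of the same libraries, so this is not separate evidence. The share of all genes that separate on this scale is not given here. The tight junction gene Cldn5 (chr16:18776847-18778262) was among the 3 highest log2 fold changes of the 36 genes, at 33.4, 39.6 and 35.1 CPM in controls and 36.8, 42.4 and 38.2 CPM in mutants. Its groups overlapped, with a log2 fold change of 0.12 ± 0.10 (SE, adjusted p = 0.708). The remaining surface genes (Esam, Icam2, Clec14a, Robo4 and Mmrn2) had log2 fold changes between -0.37 and 0.05, and their groups overlapped.

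**Figure D3:**
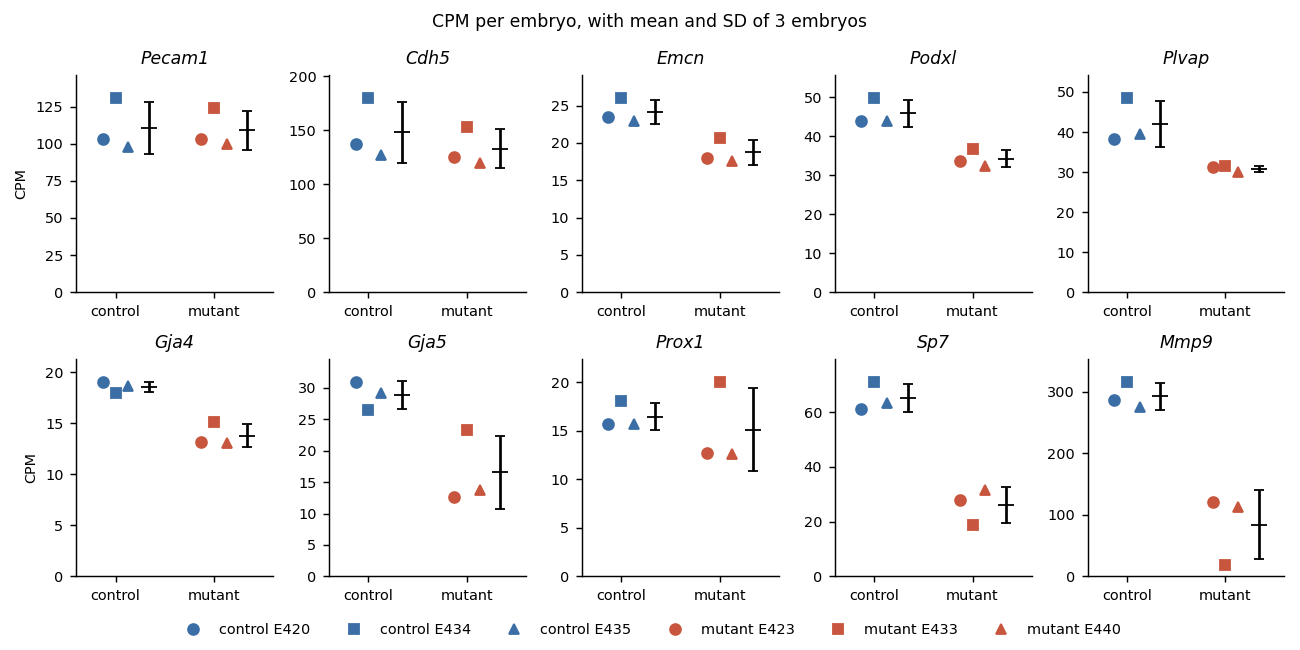
CPM in each embryo for 8 vessel genes and for Sp7 and Mmp9, with the mean and SD of 3 embryos beside the points. Vertical axes start at 0 and differ between panels. Emcn, Podxl, Plvap, Gja4 and Gja5 do not overlap between groups, Pecam1, Cdh5 and Prox1 do, and Sp7 and Mmp9 show the wider gaps.

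The connexins that join arterial endothelial cells through gap junctions were lower in every mutant. Gja5 (chr3:96904693-97077416), coding for connexin 40, had the lowest log2 fold change of the 36 genes. It was at 30.97, 26.5 and 29.1 CPM in controls and 12.7, 23.3 and 13.8 CPM in mutants. E433 was below the controls by less than the other mutants were. The log2 fold change was -0.80 ± 0.24 (SE, unadjusted p = 0.0138, adjusted p = 0.39, edgeR), and it was -1.12 without E433 (adjusted p = 0.00833) and -1.18 without E434 and E433 (adjusted p = 1.7e-10), a fit that counts the close libraries as replicates. With the close libraries summed it was -0.63 (adjusted p = 1.0). Gja4 (chr4:127311421-127314039), coding for connexin 37, was at 19.04, 17.98 and 18.61 CPM in controls and 13.18, 15.08 and 13.02 CPM in mutants. Its 3 mutants lay close together, and the log2 fold change was -0.43 ± 0.10 (SE, unadjusted p = 0.00475, adjusted p = 0.339, edgeR).

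Hey2 (chr10:30832359-30842801), a Notch target and repressor in arterial cells, was at 5.29, 4.74 and 5.71 CPM in controls and 3.25, 5.24 and 2.95 CPM in mutants. E433 was within the range of the controls. The log2 fold change of Hey2 was -0.46 ± 0.24 (SE, adjusted p = 0.544), and it was -0.76 without E433 (adjusted p = 0.0441). Sox17, an arterial transcription factor, was lower in every mutant, with means of 8.61 and 7.11 CPM and a log2 fold change of -0.28 ± 0.13 (SE, adjusted p = 0.513). Efnb2, coding for the ephrin ligand on arteries, had a log2 fold change of 0.04 ± 0.08 (SE, adjusted p = 0.868), with a 95% interval from -0.14 to 0.23. Of the 5 arterial genes, 3 were lower in every mutant, against 8.21% of all genes tested. The median log2 fold change of the 5 was -0.43.

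Relative to the summed 8 shared vessel genes, Gja5 was at 6.22% ± 1.263 (SD, n = 3) in controls and 3.84% ± 0.838 in mutants, but here the groups overlapped, since control E434 stood at 4.76% and mutant E433 at 4.79%. Gja4 overlapped on this scale as well, with E434 at 3.23% and the mutants between 3.10% and 3.35%. The groups of Efnb2, Hey2 and Sox17 overlapped on it too. Gja5 is also a gene of heart muscle and Gja4 is not limited to arteries, and no value here separates these sources. On the venous side, Ephb4, the receptor of ephrin-B2, had means of 130.1 CPM in controls and 112.9 CPM in mutants and a log2 fold change of -0.21 ± 0.12 (SE, adjusted p = 0.587). Aplnr, the apelin receptor of veins and sprouting vessels, was at 19.1% of the shared sum in both groups and had a log2 fold change of -0.16 ± 0.15 (SE, adjusted p = 0.734).

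The sequences before the transcript start are shown for the 3 genes with the smallest unadjusted p-values that had an entry in the RefSeq promoter table (GRCm38.p6), which held 16 of the 36 genes. Podxl and Plvap were not among those 16. Each run is 250 bases long, 5′ to 3′ on the strand of the gene, and ends just before the start of the transcript. It was searched on both strands for CCGGAAG or CAGGAAG, forms of the site of ETS factors, and for TGTTTAC or TGTTTAT, forms of the forkhead site. Capitals mark a match.
Gja4 (chr4:127314040-127314289, minus strand): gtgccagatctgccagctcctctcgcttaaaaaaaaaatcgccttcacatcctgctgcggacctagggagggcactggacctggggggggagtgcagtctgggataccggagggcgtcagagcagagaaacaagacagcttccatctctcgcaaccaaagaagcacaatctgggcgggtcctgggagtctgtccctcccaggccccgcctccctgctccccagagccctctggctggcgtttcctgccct
Emcn (chr3:137340828-137341077, plus strand): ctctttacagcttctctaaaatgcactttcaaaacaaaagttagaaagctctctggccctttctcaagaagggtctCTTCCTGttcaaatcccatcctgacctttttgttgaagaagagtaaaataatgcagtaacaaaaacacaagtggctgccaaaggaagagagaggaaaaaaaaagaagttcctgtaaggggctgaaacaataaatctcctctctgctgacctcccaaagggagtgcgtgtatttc
Gja5 (chr3:97032152-97032401, plus strand): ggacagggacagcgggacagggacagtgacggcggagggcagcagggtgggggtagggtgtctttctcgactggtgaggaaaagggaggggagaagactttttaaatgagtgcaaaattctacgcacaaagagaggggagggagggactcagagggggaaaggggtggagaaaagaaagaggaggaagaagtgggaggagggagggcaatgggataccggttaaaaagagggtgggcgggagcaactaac
The ETS letters were found in Emcn alone of the 3, on the minus strand, from 174 to 168 bases before the start, and the forkhead letters in none. The GC content was 61.2% for Gja4, 40.8% for Emcn and 56.4% for Gja5. Over all 27025 promoters of this length, 16.8% held the ETS letters and 7.09% the forkhead letters. Among the 16 vessel genes in the table, 4 held the ETS letters (Emcn, Egfl7, Robo4 and Apln) and 1 the forkhead letters (Clec14a). The Gja5 window lies inside the span of Gja5 in the count table, whose annotation holds a longer model that starts further upstream.

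None of the receptors differed at an unadjusted p-value under 0.05. The angiopoietin receptor Tek (TIE2) had means of 41.6 CPM in controls and 40.0 CPM in mutants, at a log2 fold change of -0.06 ± 0.12 (SE, adjusted p = 0.891), and E433 was its highest library at 47.3 CPM. The related receptor Tie1 had the lowest log2 fold change of the 7 in this group, -0.26 ± 0.12 (SE, adjusted p = 0.494). The endothelial phosphatase Ptprb, which acts on TIE2, was at 0.02, the TGF-beta coreceptor Eng at -0.11 and the sphingosine 1-phosphate receptor S1pr1 at -0.17 on the same log2 scale. The groups overlapped for all 7.

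The ligands showed no shared direction. Angpt2, the angiopoietin of sprouting vessels, was at 11.3, 12.7 and 10.1 CPM in controls and 8.03, 11.5 and 7.13 CPM in mutants. E433 was within the controls and the other mutants were below them, and the log2 fold change was -0.35 ± 0.21 (SE, adjusted p = 0.579). Angpt1, the TIE2 ligand made by cells around vessels, had a log2 fold change of -0.23 ± 0.13 (SE, adjusted p = 0.571), and here E433, at 11.6 CPM, was the lowest library. Apln (chrX:48025146-48034853), the ligand of Aplnr, had the highest log2 fold change of the 36 genes. It was at 26.5, 30.7 and 29.2 CPM in controls and 28.0, 42.7 and 25.6 CPM in mutants. Its value of 0.16 ± 0.20 (SE, adjusted p = 0.809) rested on E433, and without that embryo it was -0.10.

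Among the 8 transcription factors, 0 passed the unadjusted limit in either direction, and the median log2 fold change was -0.23. Erg (chr16:95359169-95586593), an ETS factor of endothelial cells that cartilage also expresses, was at 24.6, 37.0 and 23.7 CPM in controls and 16.7, 26.0 and 14.5 CPM in mutants. The highest library of each group was again the one with the most RNA of the cartilage markers. The log2 fold change was -0.57 ± 0.27 (SE, adjusted p = 0.516). The part of cartilage in the Erg values was not tested. The other ETS factors, Fli1 and Ets1, had log2 fold changes of -0.28 ± 0.12 (SE, adjusted p = 0.487) and -0.19 ± 0.19 (SE, adjusted p = 0.755). The 3 SoxF factors, which act together in vessel formation, did not move alike. Sox7 (chr14:63943673-63950732) was at 16.6, 20.1 and 18.03 CPM in controls and 20.7, 19.95 and 18.8 CPM in mutants, with overlapping groups and a log2 fold change of 0.12 ± 0.11 (SE, adjusted p = 0.726). Sox18 was at 0.10 and Sox17 at -0.28 on the log2 scale, and whether the 3 differ from one another was not tested.

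Prox1 (chr1:190118035-190170714), the regulator of lymphatic identity, was at 15.7, 18.02 and 15.6 CPM in controls and 12.7, 20.02 and 12.6 CPM in mutants. E433 was the highest of the 6 libraries and the other mutants were the lowest, and the log2 fold change was -0.12 ± 0.20 (SE, adjusted p = 0.857). Liver cells also express Prox1. The 8 hepatocyte genes of a marker list summed to 634.7 CPM in E433 and to between 30.5 and 50.5 CPM in the other libraries, none of them at 0 in E433, and their part in the Prox1 level of that library was not tested. The median log2 fold change of 8 other lymphatic genes was -0.11. Of them, 1 was lower at an unadjusted p-value under 0.05 and 0 were higher, against 4.70% and 5.90% of all genes tested. That gene was Lyve1, the hyaluronan receptor of lymphatic vessels and of some macrophages, at 54.9, 44.6 and 51.9 CPM in controls and 39.0, 39.6 and 40.4 CPM in mutants. Its groups did not overlap, and the log2 fold change was -0.35 ± 0.10 (SE, unadjusted p = 0.00931, adjusted p = 0.376, edgeR). The VEGF-C receptor Flt4 was the lowest of this list at -0.50 ± 0.23 (SE, adjusted p = 0.499) and the scavenger receptor Stab2 the highest at 0.66 ± 0.49 (SE, adjusted p = 0.666).

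Of the secreted and enzymatic products, Nos3, the endothelial nitric oxide synthase, was lower in every mutant, with a log2 fold change of -0.29 ± 0.13 (SE, adjusted p = 0.512). Exons of Atg9b and Gm15587 cover 32.3% of the exon bases of Nos3, so its counts are uncertain, as are those of Egfl7, Angpt1 and Sox17, which share 11.2%, 14.2% and 16.8% of theirs with other genes. The clotting factor Vwf and the secreted protein Egfl7 both had a log2 fold change of -0.08, with adjusted p-values of 0.906 and 0.783.

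Further genes of the vessel wall were compared in the same way. Of 22 other endothelial genes, 0 were called and 0 passed the unadjusted limit in either direction (edgeR), and 17 had a log2 fold change below 0, with a median of -0.12. In this list 2 genes were lower and 2 higher in every mutant, against 8.21% and 6.81% of all genes tested. The VEGF receptor Kdr was at 61.3, 82.6 and 56.4 CPM in controls and 62.7, 81.3 and 57.1 CPM in mutants, with a log2 fold change of 0.01 ± 0.19 (SE, adjusted p = 0.996). The ends of the list were Sele, an adhesion molecule of inflamed vessels present at under 1 CPM, at -0.90 ± 0.39 (SE, adjusted p = 0.488), and Tal1, a factor shared with blood cells, at 0.36 ± 0.20 (SE, adjusted p = 0.556). Of 11 genes of pericytes and smooth muscle, the cells wrapped around vessels, 0 passed the unadjusted limit. Their median log2 fold change was -0.05, from -0.37 ± 0.21 for Pdgfrb (SE, adjusted p = 0.566) to 0.34 ± 0.25 for Myh11 (SE, adjusted p = 0.656).

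Blood cells share several of the vessel genes, so their markers are given beside them. Fli1 and Vwf are also expressed by megakaryocytes. Over all genes tested, 4.70% were lower and 5.90% higher in mutants at an unadjusted p-value under 0.05. Of 7 megakaryocyte and platelet genes, 2 were higher in mutants at an unadjusted p-value under 0.05, Gp1ba with a log2 fold change of 1.30 ± 0.29 (SE, adjusted p = 0.307) and Pf4 with 0.43 ± 0.17 (SE, adjusted p = 0.455). The lowest of that list was Gp9, at -0.94 ± 0.54 (SE, adjusted p = 0.571). The list summed to between 25.9 and 30.2 CPM in controls and between 32.4 and 36.3 CPM in mutants, and of its genes Gp6 alone was at 0 in a library, E440. Of 7 leukocyte genes, 3 were lower, Lcp1 at -0.55 ± 0.08 (SE, adjusted p = 0.145), Itgb2 at -0.64 ± 0.22 (SE, adjusted p = 0.415) and Laptm5 at -0.25 ± 0.09 (SE, adjusted p = 0.437). Of 8 erythroid genes, 5 were lower, among them the globin Hbb-bt at -1.10 ± 0.30 (SE, adjusted p = 0.376), and the list summed to between 22586 and 27787 CPM in controls. In mutants it came to 18217 CPM for E433, 9368 CPM for E423 and 9513 CPM for E440. E433 was above both other mutants for 31 of the 36 vessel genes. The part of blood content in these values was not tested.

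**Figure D4:**
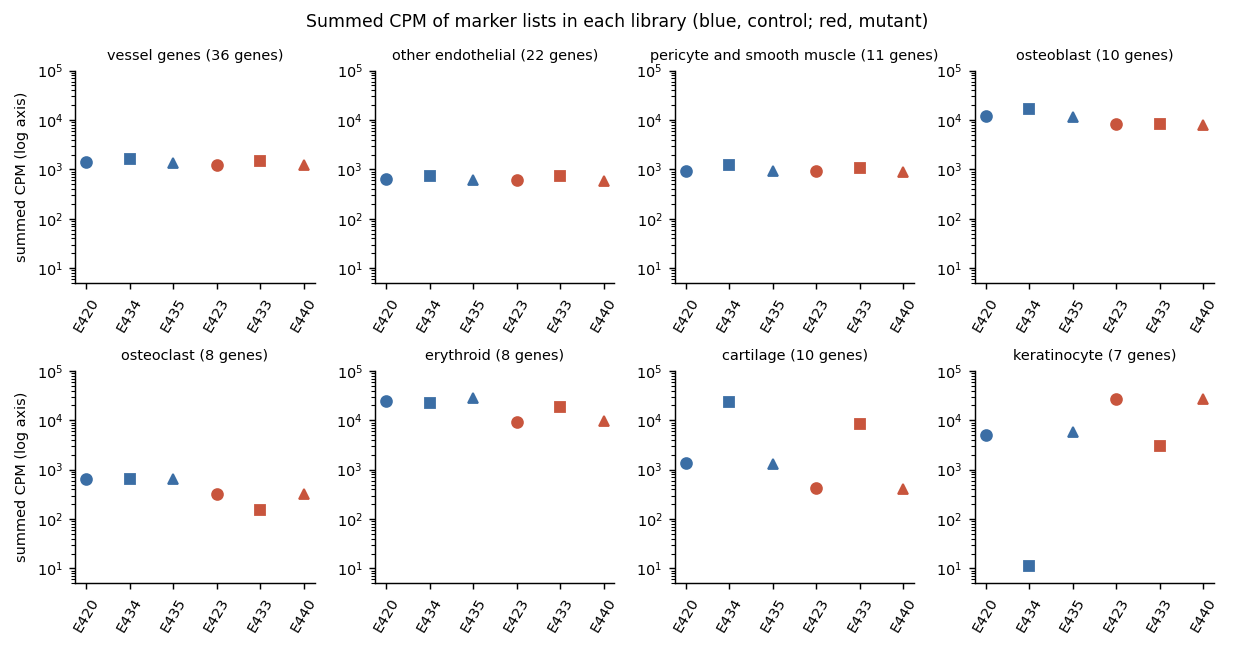
Summed CPM of 8 gene lists in each library, on a shared log axis, with controls in blue and mutants in red. The vessel (1204 to 1630 CPM) and pericyte (903 to 1216 CPM) lists overlap between the groups. The osteoblast and osteoclast lists are lower in the 3 mutants. The cartilage list sets E434 and E433 apart from the others. The keratinocyte list is far lower in E434, highest in E423 and E440, and in E433 near controls E420 and E435.

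With all 6 libraries, Sp7 and Mmp9 had lower log2 fold changes than each of the 36 vessel genes. Sp7, the osteoblast transcription factor, was at 61.4, 71.1 and 63.4 CPM in controls and 27.9, 18.8 and 31.7 CPM in mutants. The groups were far apart, and the log2 fold change was -1.32 ± 0.19 (SE, unadjusted p = 0.00034, adjusted p = 0.146, edgeR). Mmp9 was at 286.4, 316.1 and 274.8 CPM in controls and 120.0, 18.9 and 111.8 CPM in mutants, with E433 far below the other mutants. Its log2 fold change was -1.81 ± 0.62 (SE, unadjusted p = 0.0239, adjusted p = 0.421, edgeR), so neither gene passed the adjusted limit with all 6 libraries. Without E433 the values were -1.13 for Sp7 (adjusted p = 0.00851) and -1.33 for Mmp9 (adjusted p = 0.00333), beside -1.12 for Gja5. Without E434 and E433, Gja5 (-1.18) was below Sp7 (-1.06), and Mmp9 was at -1.27. With the close libraries summed, Sp7 was at -1.46 and Mmp9 at -2.15, both with an adjusted p of 1.0. With all 6 libraries, the 95% interval of 32 of the 36 vessel genes lay wholly above that of Sp7, and the interval of 6 of the 36 wholly above that of Mmp9, which is wide.

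The ratio within each embryo compared these genes with the general endothelial markers directly. The log2 ratio of Sp7 to Pecam1 was -0.75, -0.88 and -0.62 in controls and -1.88, -2.72 and -1.65 in mutants. The groups were apart and Sp7 was 2.52 times lower relative to Pecam1 in mutants, with an exact permutation p of 0.1, 2-sided, the smallest that 3 embryos against 3 allow. Relative to Cdh5, Sp7 was 2.30 times lower. The log2 ratio of Mmp9 to Pecam1 was 1.47, 1.27 and 1.49 in controls and 0.22, -2.72 and 0.16 in mutants, a mean difference of -2.19, or 4.56 times lower. Relative to Cdh5 the difference of Mmp9 was -2.06, or 4.16 times lower. All 4 ratios were apart between the groups with the same exact permutation p of 0.1, also after adjustment over the 4 tests, so the design could not take them below 0.05. Without E433 the mean differences of Mmp9 were -1.22 relative to Pecam1 and -1.08 relative to Cdh5. Those of Sp7 were then -1.02 and -0.88.

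**Figure D5:**
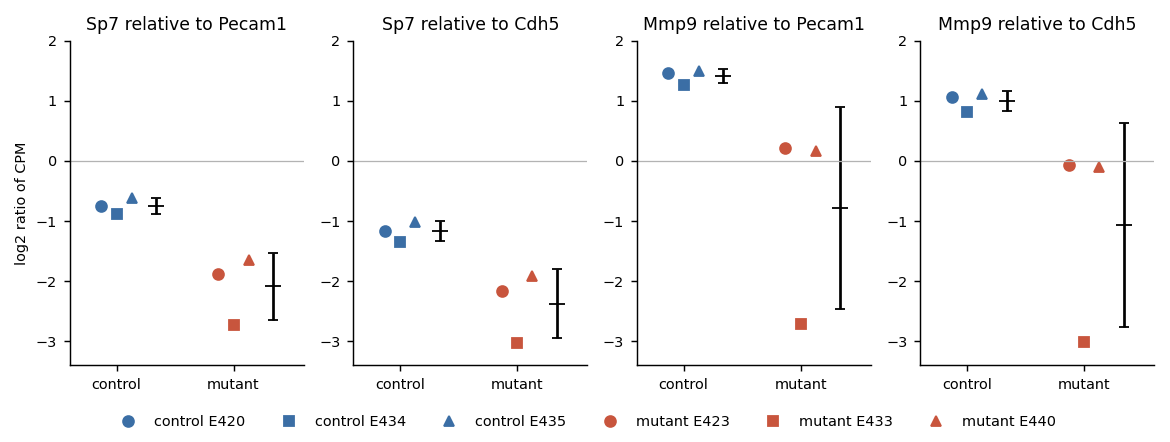
The log2 ratio of the CPM of Sp7 or Mmp9 to that of Pecam1 or Cdh5 in each embryo, with the mean and SD of 3 embryos. The mutants lie below the controls in all 4 panels, and E433 (red squares) is the lowest embryo in each.

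The lists to which Sp7 and Mmp9 belong were mostly lower. Over all genes tested, 4.70% were lower at an unadjusted p-value under 0.05. In 8.21% every mutant lay below every control, and 0.0639% were called. Of 10 osteoblast genes, 9 were lower at an unadjusted p-value under 0.05 and 1 was called, Phex at a log2 fold change of -1.68 ± 0.12 (SE, adjusted p = 0.0775), and the lowest was Dmp1 at -2.51 ± 0.39 (SE, adjusted p = 0.155). Their median was -1.42, and -1.19 without E433, with sums of 11505 to 16626 CPM in controls and 7986 to 8379 CPM in mutants. Of 8 osteoclast genes, all 8 were lower in every mutant and 4 passed the unadjusted limit, with a median of -1.01. That median rested on E433 and was -0.58 without it. The called gene was the protease Ctsk, at -1.261 ± 0.15 (SE, adjusted p = 0.0999). The study examined several of these bone genes in the same libraries, so their direction here is not independent evidence. In separate rib cage RNA samples of the same age, the study's quantitative PCR found Sp7, Runx2, Col1a and Spp1 reduced. The 36 vessel genes summed to between 1349 and 1630 CPM in controls and between 1204 and 1478 CPM in mutants, which overlap.

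Of 6 genes through which cartilage and bone attract vessels and osteoclasts, 3 were lower at an unadjusted p-value under 0.05, against 4.70% of all genes tested. Vegfa, the main attractant of endothelial cells, was at 47.1, 48.3 and 50.8 CPM in controls and 47.2, 53.7 and 48.3 CPM in mutants. Its log2 fold change was 0.03 ± 0.08 (SE, adjusted p = 0.917), with a 95% interval from -0.16 to 0.23. In hypertrophic chondrocytes of mutants the study saw VEGFA protein at a reduced level, a stain it reports with those of the tibia. RNA of whole rib cages does not resolve that cell layer. Mmp13, the collagenase of hypertrophic chondrocytes and osteoblasts, was the lowest of the 6 at -3.00 ± 0.73 (SE, adjusted p = 0.346). By contrast, the study describes MMP13 protein, stained in the tibia, as unaffected in level. Tnfsf11, which codes for the osteoclast-inducing ligand RANKL, was at -1.78 ± 0.24 (SE, adjusted p = 0.145) and the membrane protease gene Mmp14 at -0.47 ± 0.15 (SE, adjusted p = 0.408).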

How the data were processed

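The 36 genes, the marker lists and the tests were chosen with earlier results of these data known. RNA of 6 rib cages was sequenced by the authors from both ends as stranded mRNA libraries. The authors aligned reads to GRCm38 with HISAT2 2.1.0 and deposited counts per gene from featureCounts 1.6.0 on GENCODE release M25, not normalized. Read ends were counted singly and without regard to strand, and multi-mapping reads were dropped. Expected counts and TPM were deposited by the authors from STAR 2.7.6 and RSEM 1.2.31. Their DESeq2 tables hold fold changes and p-values and were not used, nor were 12 columns of per-sample values in them.

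Symbols were found for 55141 of 55487 gene IDs. The 26596 genes whose counts over all libraries came to 10 or more were tested with edgeR 4.0.16 (TMM, quasi-likelihood) in R 4.3.3, with Benjamini-Hochberg adjustment. CPM used TMM-scaled library sizes. Log2 ratios of gene pairs were compared by exact permutation in scipy 1.17.1. On simulated data for this comparison (26596 genes, 200 of them changed), edgeR recovered 192 and called 11 others. Recovery at folds as small as those of the vessel genes, or with close library pairs, was not tested. Replicates are separate embryos whose litters are not given. Library totals limit precision as given with the results, and duplicate reads could not be told apart.

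Full values are given for Pecam1, Cdh5, Emcn, Prox1, genes with an unadjusted p under 0.05, and the 3 highest and lowest fold changes, with shorter values for arterial and venous genes and for list genes that passed or lay at the ends of their list. Kdr, Vegfa and the other genes outside that rule were named after their values were seen. Alternatives were DESeq2 1.42.0 (its size factors, and its Wald test), filterByExpr, no filter, expected counts rounded to whole numbers, each library left out, E434 and E433 left out, and the close libraries summed.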

Additional observations from a re-analysis of the deposited data

How the results depend on the processing

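With 3 embryos per group, small differences cannot be told from the spread between libraries, and E434 and E433 differ from the other libraries of their groups in marker levels. No gene of the 36 was called under DESeq2's size factors, filterByExpr, no low-count filter, the expected counts, DESeq2's Wald test, the summed close libraries, or edgeR without the fold limit. Leaving out 1 library at a time, between 0 and 1 were called, between 5 and 17 were lower at an unadjusted p-value under 0.05, between 8 and 24 were lower in every mutant and between 0 and 4 higher in every mutant. The upper values came without E433, except the 4, which came without E434. Of all genes, 12.5% were lower at that unadjusted limit and 23.4% lower in every mutant without E433, and 14.2% higher in every mutant without E434. With the expected counts, 6 of the 36 were lower in every mutant, against 8 in the main counts. No share over all genes is given for that setting. Without E434 and E433, 1 gene was called, 23 were lower and 3 higher at an unadjusted p-value under 0.05, as were 19.5% and 20.3% of all genes. With the close libraries summed, which leaves 2 libraries per group, 2 were lower (1.35% of all genes). The median log2 fold change stayed between -0.27 and -0.10 in all settings run. The log2 fold change of Sp7 passed the adjusted limit with no low-count filter (-1.33, adjusted p = 0.0873), in DESeq2's Wald test (-1.31, adjusted p = 9.47e-08) and without E434 and E433 (-1.06, adjusted p = 4.78e-11), where that of Mmp9 was -1.27 (adjusted p = 9.37e-15). With the close libraries summed both had an adjusted p of 1.0, and Mmp9 had 0.201 in DESeq2's Wald test. Leaving out 1 library, Sp7 ran from -1.48 to -1.13 and Mmp9 from -2.16 to -1.33. The 4 ratios of Sp7 and Mmp9 to Pecam1 and Cdh5 kept their direction in every setting run.

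The sign held in every setting for 26 of the 36 genes. The other 10 had log2 fold changes near 0 and changed sign in 24 of 468 combinations of gene and setting. Without E434 and E433, Pecam1 was at 0.0146, Apln at -0.0571 and Efnb2 at -0.017. With the close libraries summed, Tek was at 0.0133, Sox18 at -0.0093, Robo4 at -0.0083 and Ptprb at -0.041. Leaving out 1 library, Pecam1 ran from -0.12 to 0.12, Cdh5 from -0.27 to 0.009, Tek from -0.19 to 0.0095, Esam from -0.18 to 0.0211, Robo4 from -0.0559 to 0.26, Apln from -0.10 to 0.30, Vwf from -0.22 to 0.0659, Ptprb from -0.10 to 0.25 and Efnb2 from -0.0034 to 0.0807. The cause was not tested.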
